A study of Homo sapiens with 3 samples.

Results

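The genes described here are 5 regulators that restrain p53 or its partners: MDM2, MDM4, PPM1D, CCNG1 and RCHY1. They were taken by gene symbol from the annotation of the array and are 5 of its 27274 gene names. No measured value entered the rule, but the genes were chosen with earlier results of these data known. All of their probes were kept, which gave 10 of 34127 probes and 28 spots. The data are 1-color Agilent arrays of total RNA from HepG2, a human hepatocellular carcinoma line that carries wild-type p53. One array held cells labelled untreated, with 0 μM etoposide, which the study names as its DMSO control, and the others held cells treated with 10 μM or 100 μM etoposide, each for 30 h. Etoposide is an anticancer drug that traps topoisomerase II on DNA and leaves double-strand breaks. The comparison was set up to separate a low dose, chosen for senescence, from a high dose, chosen for apoptosis. Each condition is 1 array, so the arrays do not measure the spread between cultures and hold no replicate check of any difference. Differences are therefore descriptions of these 3 arrays, and their errors are the SD between spots of repeated probes on the same array.

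p53 is a transcription factor that is kept scarce in resting cells and accumulates after DNA damage. Several of the genes it switches on encode proteins that act back on it, which makes the response self-limiting. MDM2 is the ubiquitin ligase that marks p53 for degradation and is itself a p53 target. MDM4 is its relative, which binds p53 and pairs with MDM2 but is a poor ligase on its own. PPM1D, also called WIP1, is a phosphatase and p53 target that removes phosphates from p53 and from the damage kinases. CCNG1 encodes cyclin G1, a p53 target that brings the phosphatase PP2A to MDM2, and RCHY1 encodes PIRH2, another ubiquitin ligase of p53.

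The arrays are described by a few facts. The 75th percentile of the signal over probes, to which every array was scaled, was 514 in control cells, 536 at 10 μM and 432 at 100 μM. Between 19836 and 20150 probes per array were well above background by the scanner software. All 10 probes of the regulators were well above background on all 3 arrays, and no spot was saturated. All 9 hepatocyte markers were well above background on all arrays, at signals of 633 to 197000. Of 5 fibroblast markers, 4, among them COL1A1 and COL3A1, were not so on any array, and PDGFRB was on 2 arrays. Of 4 endothelial markers, 2 were well above background on all arrays and 1 on none. All 4 leukocyte markers found were also well above background, and their summed signal was 1620, 2050 and 2841 at 0, 10 and 100 μM; their part in the values below was not tested. These are bulk cultures, so fewer cells of a kind and less RNA per cell cannot be told apart.

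Signals below are the deposited intensities of a probe before scaling, and fold differences are ratios after scaling to the 75th percentile. A gene with several probes is represented by the brightest one, and probes are numbered from the start of the transcript. Levels are compared within a probe only.

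MDM2 and PPM1D were higher in treated than in control cells, and both were higher at 10 μM than at 100 μM. MDM4 was nearly level on the 3 arrays. CCNG1 was level at 10 μM and lower at 100 μM, and RCHY1 was lower at both doses. With the study's threshold of 3-fold over control, 2 of 5 genes were higher at 10 μM, MDM2 and PPM1D, beside 1.29% of the 16714 genes that could be called. At 100 μM only MDM2 was past 3-fold higher, beside 1.84% of 16977 genes. None of the 5 was past 3-fold lower at either dose, beside 0.359% and 1.64% of genes. Between the doses, MDM2 and PPM1D were past 2-fold higher at 10 μM, beside 3.64% of 16791 genes, and none was past 2-fold lower, beside 3.94%. For MDM2 this held for the brightest of its 3 probes only. The study had itself picked MDM2 and PPM1D from these arrays with the same thresholds. Their place in the counts at 10 μM was therefore known beforehand. The study then set MDM2 aside for its known function. By its qPCR PPM1D was also higher at 10 μM than at 100 μM in HepG2, but not past 2-fold in treated U2OS cells. The median log2 difference over the 5 genes was 0.09 at 10 μM over control, 0.02 at 100 μM over control and 0.45 at 10 μM over 100 μM. The medians over all genes measured on both arrays were −0.03, 0.09 and −0.10. The comparisons share arrays, so their values are set side by side.

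**Figure D1:**
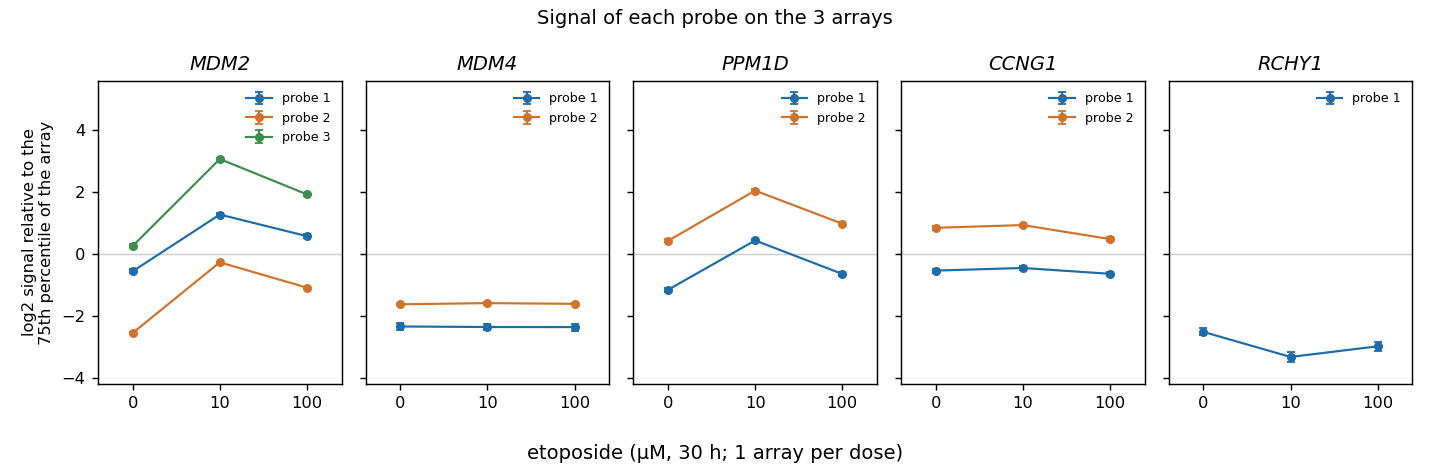
Signal of the 10 probes on the 3 arrays, 1 panel per gene. The horizontal axis is the etoposide dose in μM and the vertical axis the log2 signal relative to the 75th percentile of the array. Points are single arrays, bars are the spot-to-spot SD, and probes are numbered from the start of the transcript. All 3 probes of MDM2 and both of PPM1D peak at 10 μM, the MDM4 probes are flat and the RCHY1 probe is lower at both doses than in control cells.

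MDM2 was measured by 3 probes of 60 bases on chromosome 12, plus strand, for the transcript NM_002392. Their positions on hg18 are chr12:67519837-67519896 for probe 1, chr12:67520089-67520148 for probe 2 and chr12:67525158-67525217 for probe 3. They start at bases 1721, 1973 and 7042 of the transcript. The distances between them are equal in the transcript and in the genome, at 252 bases from probe 1 to probe 2 and 5069 bases from probe 2 to probe 3, so no intron lies between the 3 probes. The sequence of probe 1 is shown because it fixes where the others lie. Read from its first base it holds 19 codons and then a stop codon, in capitals, which is the end of the MDM2 reading frame.

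MDM2 probe 1: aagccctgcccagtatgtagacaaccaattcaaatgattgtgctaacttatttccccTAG

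Probes 2 and 3 therefore lie downstream of the coding sequence, in the stretch without an intron that follows the stop codon.

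The signal of MDM2 probe 3, the brightest, was 616 in control cells, 4522 at 10 μM and 1652 at 100 μM. After scaling it was 7.04-fold higher at 10 μM than in control cells (log2 2.81 ± 0.08, spot-to-spot SD) and 3.19-fold higher at 100 μM (log2 1.67 ± 0.08). The signal at 10 μM was 2.21 times that at 100 μM after scaling (log2 1.14 ± 0.07). By this probe alone, MDM2 ranked 27 from the top of 15449 genes at 10 μM and 151 of 15466 at 100 μM.

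Probe 2 is printed 10 times on each array, so its spots show the technical spread directly. In control cells the lowest, median and highest spots were 79.0, 87.6 and 98.9. At 10 μM they were 417, 450 and 466, and at 100 μM, with 1 outlier spot left out, 196, 205 and 214. The spots of the 3 arrays did not overlap. The scaled difference was 4.88-fold at 10 μM (log2 2.29 ± 0.04) and 2.77-fold at 100 μM (log2 1.47 ± 0.04).

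Probe 1, at the end of the coding sequence, gave signals of 349, 1302 and 647 at 0, 10 and 100 μM. It was 3.57-fold higher at 10 μM (log2 1.84 ± 0.08) and 2.20-fold higher at 100 μM (log2 1.14 ± 0.09). The ratio of 10 μM over 100 μM was 1.62 by probe 1 and 1.76 by probe 2, both short of the 2-fold reached by probe 3. The size of the difference was therefore not the same along the transcript. Probe 3 exceeded probe 1 by 0.98 ± 0.11 on the log2 scale at 10 μM and by 0.53 ± 0.12 at 100 μM, each larger than the spread between spots. Probe 2 lay between them, 0.45 ± 0.09 above probe 1 at 10 μM. With background modelled by normexp in place of the deposited subtraction, probe 2 was 3.23-fold higher at 10 μM, close to 3.15-fold for probe 1, while probe 3 was 6.36-fold higher. The probes differ in base composition, with 41.7% G and C in probe 1, 28.3% in probe 2 and 35.0% in probe 3, beside a median of 43.3% over all probes. The part of base composition and of transcript ends in these differences was not tested. All 3 probes of MDM2 were past 3-fold at 10 μM, whereas at 100 μM probe 3 alone was, and its value over 7 scalings ranged from 2.61 to 3.32-fold.

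**Figure D2:**
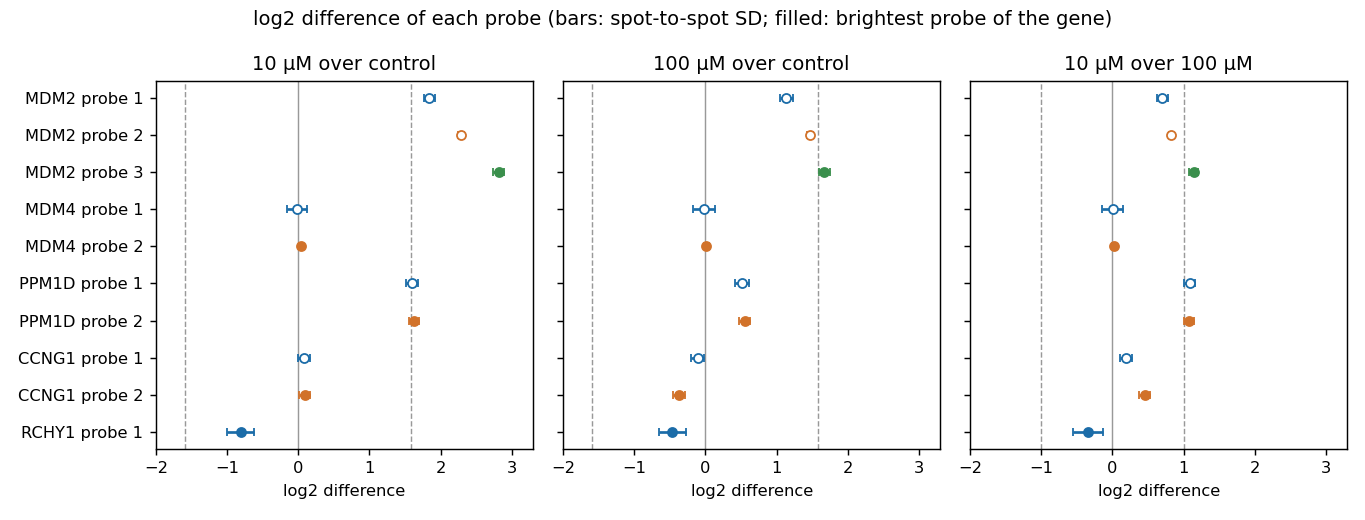
log2 difference of each of the 10 probes in the 3 comparisons. Points are the scaled differences between single arrays, bars their spot-to-spot SD, and filled points the brightest probe of a gene. Dashed lines mark 3-fold over control and 2-fold between the doses. The 3 MDM2 probes stand to the right in both comparisons over control and increase from probe 1 to probe 3, while both PPM1D probes stand at the dashed line at 10 μM and between the lines at 100 μM.

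The promoters of the 5 genes were searched for the p53 response element because p53 binds some of its target genes near the start, others within introns or farther away. RefSeq on GRCh38.p14 gave 12 windows, from 250 bases before to 50 after each start, and all 5 symbols matched. The element searched is the p53 consensus of a pair of adjacent half-sites, 20 letters in all, which reads the same on both strands. A start within MDM2 held a match with 2 letters off, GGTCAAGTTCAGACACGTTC at chr12:68808923-68808942, and one with 3 letters off, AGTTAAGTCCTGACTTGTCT at chr12:68808961-68808980. They begin 94 and 56 bases before that start and are 18 bases apart. The stretch is shown because it carries both matches, in capitals, and lies downstream of the other MDM2 starts.

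MDM2 internal promoter, chr12:68808767-68809016, plus strand: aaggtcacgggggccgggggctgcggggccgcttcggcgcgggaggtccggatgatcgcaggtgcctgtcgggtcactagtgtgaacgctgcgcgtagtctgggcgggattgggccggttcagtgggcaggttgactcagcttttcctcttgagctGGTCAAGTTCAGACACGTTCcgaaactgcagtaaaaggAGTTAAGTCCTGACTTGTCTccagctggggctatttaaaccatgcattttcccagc

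Matches with at most 2 letters off were held by 0.649% of 35116 windows, and with at most 3 off by 5.20%. The motif and its tolerance were chosen after the sequences were seen, so these shares do not measure how rare the MDM2 matches are. The windows at the upstream MDM2 starts came no closer than 5 letters off, and those of PPM1D, MDM4, RCHY1 and CCNG1 no closer than 4, 5, 5 and 6. A match is a description of the letters, and its absence from a window says nothing of p53 binding elsewhere in these genes. The 3 MDM2 probes lie at the other end of the gene, so they do not tell transcripts of one start from those of another.

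PPM1D was measured by 2 probes for the transcript NM_003620 on chromosome 17, plus strand. On hg18 they are chr17:56088924-56088983 for probe 1 and chr17:56096417-56096476 for probe 2, and they start at bases 1421 and 2761 of the transcript. They are 1340 bases apart in the transcript and 7493 in the genome, so at least 1 intron lies between them. Probe 1 is shown as the sequence that carries the difference upstream of that intron.

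PPM1D probe 1: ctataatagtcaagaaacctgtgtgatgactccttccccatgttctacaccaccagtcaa

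The signal of PPM1D probe 2, the brighter, was 693 in control cells, 2229 at 10 μM and 855 at 100 μM. It was 3.08-fold higher at 10 μM than in control cells (log2 1.63 ± 0.07), 1.47-fold higher at 100 μM (log2 0.55 ± 0.08) and 2.10-fold higher at 10 μM than at 100 μM (log2 1.07 ± 0.07). The array at 10 μM stood apart, and the array at 100 μM was closer to control than to 10 μM. Probe 1 gave signals of 231, 728 and 277 and folds of 3.02, 1.43 and 2.12 in the same order. The probes differed by 0.03 ± 0.11 on the log2 scale at 10 μM and by 0.04 ± 0.12 at 100 μM, within the spread between spots. PPM1D ranked 115 of 15449 genes at 10 μM and 2600 of 15466 at 100 μM. Its distance from the 3-fold threshold at 10 μM was smaller than the spot-to-spot SD. Over 7 scalings probe 2 ranged from 3.04 to 3.22-fold, and with normexp it was 2.95-fold and no longer past the threshold. Probe 1 ranged from 2.97 to 3.15-fold and was short of 3-fold with median scaling and with quantile normalization. With normexp probe 1 was 2.53-fold higher.

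MDM4 was measured by 2 probes for NM_002393 on chromosome 1, plus strand, at chr1:202766493-202766552 and chr1:202785246-202785305 on hg18. Probe 2, the brighter, was printed 10 times per array, and it is shown as the probe with the smallest error over control among the 10.

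MDM4 probe 2: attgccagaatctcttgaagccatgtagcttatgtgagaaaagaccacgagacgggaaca

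The lowest, median and highest spots of MDM4 probe 2 were 154, 165 and 183 in control cells, 168, 179 and 192 at 10 μM, and 130, 143 and 152 at 100 μM. The spots of control cells and of 10 μM overlapped, and those at 100 μM were below both before scaling, on the array with the lowest 75th percentile. After scaling the difference was 1.03-fold at 10 μM (log2 0.04 ± 0.03) and 1.01-fold at 100 μM (log2 0.02 ± 0.03). Probe 1 gave signals of 101, 105 and 84.1 and scaled folds of 0.988 and 0.986. Over 7 scalings probe 2 ranged from 1.01 to 1.07-fold at 10 μM and from 0.827 to 1.05-fold at 100 μM, so the sign at 100 μM depended on the scaling.

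CCNG1 was measured by 2 probes for NM_004060 on chromosome 5, plus strand, at chr5:162798870-162798929 and chr5:162803587-162803646 on hg18. They start at bases 263 and 1454 of the transcript, and the one near its start is shown.

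CCNG1 probe 1: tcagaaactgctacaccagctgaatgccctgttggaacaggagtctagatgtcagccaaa

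The signal of CCNG1 probe 2, the brighter, was 927 in control cells, 1028 at 10 μM and 606 at 100 μM. It was 1.06-fold higher at 10 μM (log2 0.09 ± 0.08), about as large as the spot-to-spot SD, and 0.777 times control at 100 μM (log2 −0.36 ± 0.08). Probe 1 gave signals of 355, 393 and 278, with a fold of 1.06 at 10 μM and 0.930 at 100 μM. At 100 μM the probes differed by 0.26 ± 0.12 on the log2 scale, so the size of the lower value there depended on the probe. The ratio of 10 μM over 100 μM was 1.37 by probe 2 and 1.14 by probe 1. Over 7 scalings probe 2 was 0.636 to 0.810 times control at 100 μM.

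RCHY1 was measured by 1 probe with 1 spot for NM_015436, on the minus strand of chromosome 4 at chr4:76623589-76623648 on hg18, which starts at base 4041 of the transcript. Its signal was 89.7 in control cells, 53.4 at 10 μM and 54.6 at 100 μM. After scaling it was 1.75-fold lower than in control cells at 10 μM (log2 −0.81 ± 0.19) and 1.38-fold lower at 100 μM (log2 −0.47 ± 0.19). Between the treated arrays the difference, 10 μM over 100 μM, was log2 −0.34 ± 0.21, and −0.03 without scaling. The order of the doses thus depended on the scaling for its size. RCHY1 ranked 338 from the bottom of 15449 genes at 10 μM. With normexp the values were 0.771 and 0.945 times control, nearer to 1 at both doses. The lower value of RCHY1 thus rests on 1 dim spot per array.

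**Figure D3:**
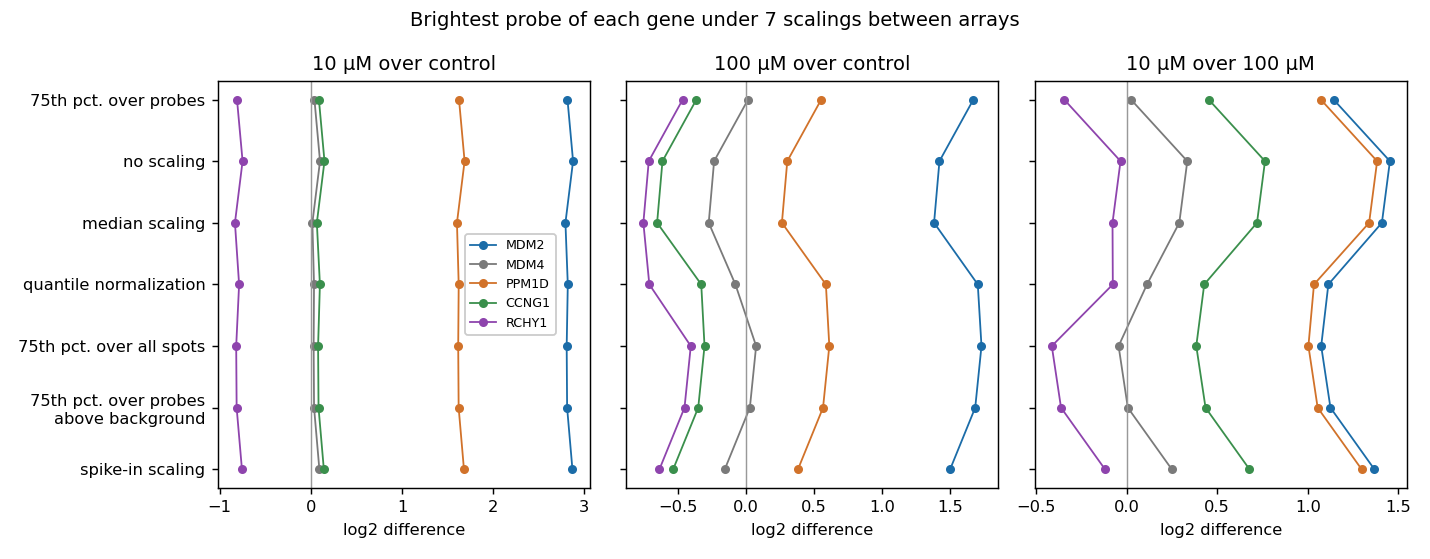
log2 difference of the brightest probe of each gene (color) under 7 scalings between arrays (rows), in the 3 comparisons. Points are differences between single arrays. At 10 μM over control each gene spans 0.08 log2 over the scalings, and at 100 μM over control 0.35 log2, so that MDM4 lies on either side of 0 there.

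Scaling moved the values at 100 μM more than those at 10 μM. Without scaling, the median of all genes moved by −0.25 on the log2 scale at 100 μM over control and by 0.06 at 10 μM. The 7 spike-in controls, RNAs of known amount added to each sample, were −0.08 apart at 100 μM (SD 0.03 over controls) where the 75th percentile was −0.25 apart. With spike-in scaling the median of all genes moved by −0.17. Under all 7 scalings MDM2 and PPM1D were higher at both doses, CCNG1 was lower at 100 μM and RCHY1 was lower at both.

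Related genes were compared by lists of p53 ligases, partners, phosphatases, substrates and targets, with 1.5-fold as the threshold. At 10 μM over control, 9.05% of genes were past 1.5-fold higher and 6.45% lower, and at 100 μM 18.4% and 9.68%. The medians given for the lists kept their side of 1 under all 7 scalings, except those of the MDM2 or MDM4 partners, the PPM phosphatases and the PP2A list at 10 μM, which lay between 0.961 and 1.06 times control.

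The well-known p53 target genes outside the 5 regulators were the list with the highest median. Of 29 measured on both arrays, 27 were past 1.5-fold higher at 10 μM and none lower, with a median of 3.06-fold, and 20 were past it at 100 μM, with a median of 2.17-fold. BTG2, an antiproliferative gene, was 10.1-fold higher at 10 μM and 6.82-fold higher at 100 μM. CDKN1A, which encodes the cell cycle inhibitor p21, was 7.94-fold and 7.07-fold higher. The lowest at 10 μM were SESN2, a stress-response gene at 1.05-fold, and the death receptor gene TNFRSF10B at 1.32-fold. At 100 μM SESN2 was 0.678 times control and TNFRSF10B 0.890 times control. At 10 μM, MDM2 was above 27 of the 29 by probe 3, 23 by probe 2 and 18 by probe 1, and PPM1D was above 15. CCNG1, itself known as a p53 target, was above 1, SESN2, and RCHY1 was below all 29. At 100 μM, MDM2 was above 23 of the 29 by probe 3 and 15 by probe 1, and PPM1D above 7. Between the doses, 10 μM over 100 μM, MDM2 by probe 3 and PPM1D by either probe were above 29 of 30 target genes. The exception, named after its value was seen, was PCNA, the replication clamp, at 3.05-fold. The study had picked MDM2, PPM1D and PCNA by a ratio past 2-fold between these arrays, so their high place was known beforehand. By probe 1, MDM2 was above 26 of the 30, and by probe 2 above 27. The median of the 30 was 1.42-fold. Each target gene is represented by its brightest probe, which for POLH, with 2 probes, gave 1.61-fold between the doses. The study counted POLH, like PCNA, as past 2-fold on these arrays.

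**Figure D4:**
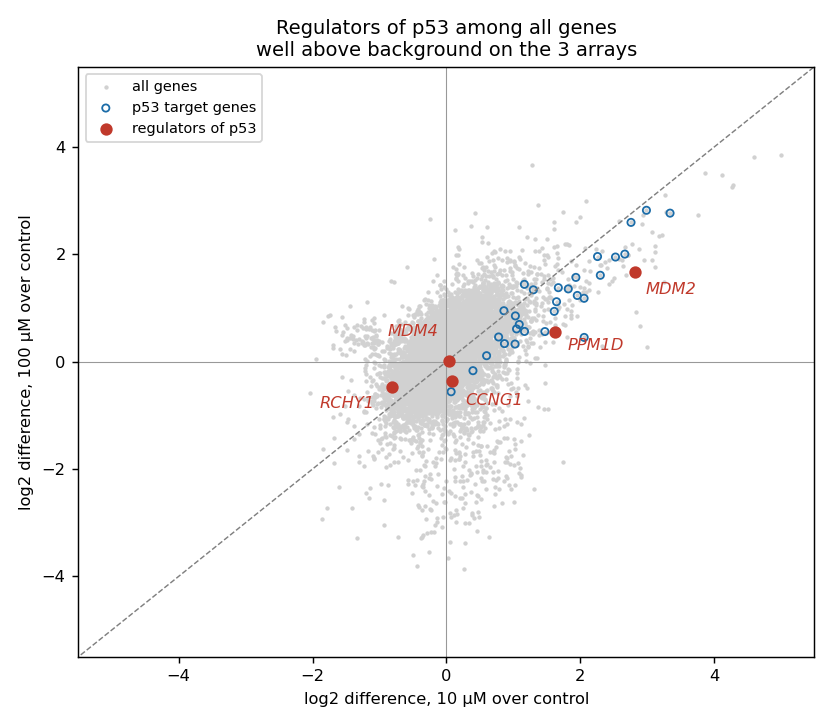
log2 difference over control at 10 μM (horizontal axis) and at 100 μM (vertical axis) for all genes well above background on the 3 arrays (grey), the p53 target genes (open circles) and the 5 regulators (filled). Both axes use the same control array, and the dashed line marks equal differences. MDM2 and PPM1D lie below the dashed line among the target genes, and MDM4, CCNG1 and RCHY1 lie in the grey cloud of all genes.

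The next list held other ubiquitin ligases of p53. Their folds ran from 0.644 to 1.68 at 10 μM and from 0.597 to 2.17 at 100 μM, and RCHY1 lay within the latter range. Of 17, 1 was past 1.5-fold higher and 3 lower at 10 μM, with a median of 0.942 times control, and at 100 μM 2 and 3, with a median of 0.918. CUL9, a cytoplasmic p53-binding cullin, was 1.68-fold higher at 10 μM and 2.17-fold at 100 μM, and RNF34 was 1.25-fold and 1.17-fold higher. RFWD2, now named COP1, was 1.55-fold lower at 10 μM and MSL2 was 1.52-fold lower.

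Proteins that act on MDM2 or MDM4 had a median of 0.976 times control at 10 μM and 0.863 at 100 μM, with 1 higher and 1 lower of 17 past 1.5-fold at 10 μM and 0 higher and 2 lower at 100 μM. MTBP, an MDM2-binding protein, had signals of 62.0, 119 and 24.7 at 0, 10 and 100 μM. It was 1.84-fold higher at 10 μM and 2.11-fold lower at 100 μM, with a ratio of 3.88 between the doses. Its signal at 100 μM was close to the lowest one well above background on that array, 21.6. USP7, the protease that removes ubiquitin from MDM2 and p53, was 1.57-fold lower at 10 μM and 1.21-fold lower at 100 μM. NPM1, a nucleolar protein that binds MDM2, was 1.49-fold and 2.10-fold lower, and RASSF1 was 1.26-fold higher at 10 μM.

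Of 15 other PPM phosphatases measured, 1 was past 1.5-fold higher and 2 lower at 10 μM, with a median of 1.01-fold, and the counts were the same at 100 μM, with a median of 0.937. PPM1A and PPM1B, relatives of PPM1D, were 1.01-fold and 1.07-fold at 10 μM. PPM1H had signals of 297, 119 and 92.3 and was 2.59-fold and 2.70-fold lower, and PHLPP1 was 1.85-fold and 1.82-fold lower. PPM1J and PPM1M were 1.73-fold and 1.48-fold higher at 10 μM, PPM1J at signals of 26.1 to 47.2 near the background.

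A further 9 genes were listed as kinases or substrates tied to PPM1D, with ATR in the list and ATM left out. Of these, 1 was past 1.5-fold higher and 1 lower at 10 μM, with a median of 1.04-fold. At 100 μM 1 was higher and 5 lower, with a median of 0.588 times control. XPC, a damage sensor of nucleotide excision repair that is also in the list of p53 targets, was 2.13-fold higher at 10 μM and 1.62-fold at 100 μM. H2AFX, the histone variant phosphorylated at breaks, was 1.43-fold higher at 10 μM and 2.34-fold lower at 100 μM. NBN, of the break-sensing MRN complex, was 1.74-fold and 1.70-fold lower, and XPA was 1.27-fold lower at 10 μM. CHEK1 and CHEK2, which encode the checkpoint kinases, were named after their values were seen. CHEK1 was 0.989 times control at 10 μM and 3.05-fold lower at 100 μM, and CHEK2 was 1.25-fold higher and then 1.93-fold lower.

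For CCNG1, the list held its relatives and the subunits of PP2A. Of 15 measured, 2 were past 1.5-fold higher and 0 lower at 10 μM, with a median of 1.02-fold, and 1 was higher and 0 lower at 100 μM. The catalytic subunit gene PPP2CB was 1.72-fold and 1.46-fold higher, and the regulatory subunit gene PPP2R5B was 1.57-fold and 2.43-fold higher. PPP2R1A and PPP2R5C, of the scaffold and of the regulatory subunits, were lowest at 0.861 and 0.900 times control. CCNG2, the nearest relative of CCNG1, was 1.09-fold at 10 μM and 1.47-fold at 100 μM, at signals of 30.1 to 37.1 with an SD of 0.43 and 0.39 on the log2 scale.

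**Figure D5:**
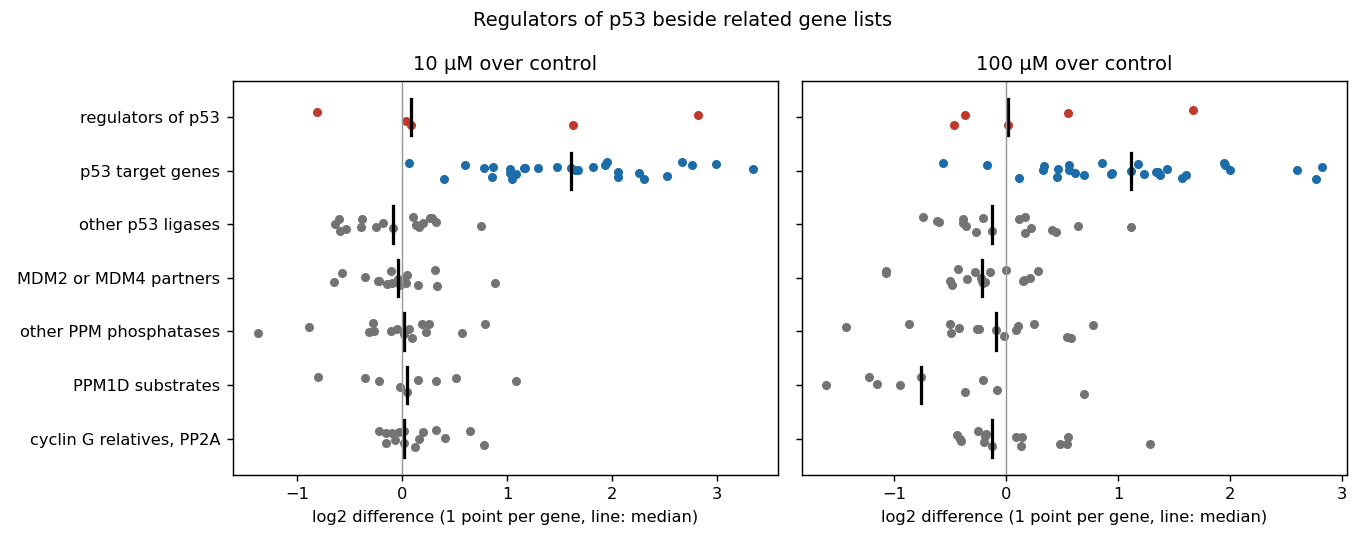
log2 difference over control at 10 μM and 100 μM for the 5 regulators and the 6 related lists. Points are genes well above background on both arrays of the comparison, and black lines are medians. The p53 target genes lie mostly above 0 at both doses, the regulators spread from RCHY1, below 0, to MDM2, and the PPM1D substrates lie mostly below 0 at 100 μM.

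The genes with the closest pattern to each regulator were found by the distance between their pairs of log2 differences over control, in 12046 genes with RefSeq transcripts detected on the 3 arrays. Each pattern is 2 numbers from 3 arrays. For MDM2 these were EPN3 (6.41-fold and 3.07-fold), SBK1 (6.25-fold and 3.46-fold) and IGFBP2 (7.77-fold and 3.70-fold). Around it, 20 genes, 0.166%, lay within a distance of 0.5. These MDM2 neighbours hold for probe 3 alone, as its other probes had smaller differences. For PPM1D they were NXPH4, CAMK2N2 and DRAM1, at distances of 0.07, 0.13 and 0.15 on the log2 scale, the last a gene of the p53 target list. Around PPM1D, 54 genes, 0.448%, lay within 0.5. The study had picked EPN3, IGFBP2 and NXPH4 from these arrays with the same thresholds that MDM2 and PPM1D passed. The study's qPCR did not bear out the difference of NXPH4. The patterns of the other regulators were common. Within the same distance lay 6601 genes, 54.8%, for MDM4, 4522 genes, 37.5%, for CCNG1 and 1152 genes, 9.56%, for RCHY1. The closest were RBM26, YME1L1 and MC1R for MDM4, CBS, EP400 and B3GALNT2 for CCNG1, and VASN, CD28 and AKR1B15 for RCHY1.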

How the data were processed

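Total RNA of HepG2 cells was labelled with Cy3 and hybridized to 3 Agilent arrays on 1 slide, with 1 array per condition. The authors' scanner output came from Feature Extraction 10.7.3.1. The deposited intensity of each spot is background-subtracted and detrended within its array, and the deposited series table equals it within a relative tolerance of 1e-06 for all 44495 spots, which leaves the arrays unscaled. Here, control and outlier spots were left out, log2 values were averaged over the spots of a probe, and each array was set relative to its 75th percentile over probes. A fold needed a signal well above background on the brighter array, and the dimmer was raised to the lowest signal well above background there.

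The error of a probe is the SD between spots of the 50 repeated probes nearest in signal, or of its own spots where printed 10 times, divided by the root of the spot number. It covers spots of 1 array, not cultures, and no test between conditions was possible. The 5 genes and the lists were chosen with earlier results of these data known, and the promoter motif and its tolerance after the sequences were seen. Named from each list were the highest and lowest 2 genes at 10 μM, with CCNG2, PPM1A and PPM1B, and from the neighbours the nearest 3. Alternatives were other scalings, normexp with an offset of 50 (limma 3.58.1, R 4.3.3), other rules for spots, probes and dim signals, and other thresholds. The steps ran in Python 3.11.15 and were tested on simulated data. Positions of probes are on hg18, from the array annotation, and promoter sequences are from RefSeq, GRCh38.p14.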

Additional observations from a re-analysis of the deposited data

How the results depend on the processing

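No paired analysis was possible because no condition has more than 1 array. The number of regulators past 3-fold at 10 μM over control, 2, was 1 with normexp, 3 at a 1.5-fold threshold, with RCHY1 lower, and 1 at a 4-fold threshold. The number past 3-fold at 100 μM, 1, was 0 without scaling, with median scaling, with spike-in scaling, with normexp, with the mean over the probes of a gene, with the probe of smallest change and at a 4-fold threshold. The number past 2-fold at 10 μM over 100 μM, 2, was 1 with the mean over probes and 1 with the probe of smallest change, without MDM2 in both, and 0 at 3-fold and 0 at 4-fold. The median log2 difference at 100 μM over control, 0.02, was −0.23 without scaling, −0.27 with median scaling, −0.078 with quantile normalization, 0.075 with the percentile over all spots, −0.16 with spike-in scaling, 0.088 with normexp and −0.020 with the probe of largest change. The median at 10 μM over 100 μM, 0.45, was 0.76 without scaling, 0.72 with median scaling, 0.68 with spike-in scaling, 0.32 with the mean over probes and 0.19 with the probe of smallest change. The stricter thresholds count fewer genes by construction, and the cause of the other changes was not tested. Of 300 single-probe values recomputed in this way, 92 shifted by over 1 spot-to-spot SD, and 14 changed sign, all of them of MDM4. With normexp, the log2 difference at 10 μM over control was 1.69 in place of 2.29 for MDM2 probe 2 and −0.38 in place of −0.81 for RCHY1. Both had control signals under 100, and 1 array per condition limits every value.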
